A study of Mus musculus with 12 samples.

Results

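The transcription factors that build and maintain the heart muscle were followed in left ventricular RNA of mice after ischaemia-reperfusion (IR) injury, with and without a label of transgenic expression of the repressor Zeb2. The members are 10 genes chosen by name out of the 38293 genes of each count table: the zinc finger factors Gata4 and Gata6, the homeobox factors Nkx2-5 and Irx4, the T-box factors Tbx5 and Tbx20, the MADS-box factors Mef2a, Mef2c and Mef2d, and the basic helix-loop-helix factor Hand2. All 10 passed the filter on low counts in both tables. In the developing heart, GATA, NKX2-5 and T-box proteins bind neighbouring sites in the control regions of contractile and ion channel genes and act together, and MEF2 proteins, which are held back by class II histone deacetylases, link these genes to calcium and stress signals. In the adult ventricle, the same factors continue to be transcribed and bind genes of the sarcomere, of conduction and of the natriuretic peptides. IRX4 is confined to the ventricles of the heart and keeps atrial genes silent there, and HAND2 acts in the right ventricle and in the outflow tract during development and is also present in cardiac fibroblasts.

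The series holds 12 RNA-seq libraries from the hearts of 12 mice, 3 in each of 4 groups. The labels give C57Bl/6J for the groups after IR and C75Bl/6J for WT sham, which was read as the same strain. WT sham and WT IR are wildtype hearts after sham surgery or at 14 days after IR, and their counts share a table. Zeb2 WT IR are wildtype littermates and Zeb2 cTg IR are hearts labelled as Zeb2 transgenic, both at 14 days after IR, and their counts share the other table. In the IR model, the left anterior descending artery was tied off for 1 h and then released. Zeb2 cTg mice are homozygous for a Zeb2 transgene that sits in the Rosa26 locus behind a floxed stop, which Cre under the Myh6 promoter removes in cardiomyocytes. Whether the littermates carried Cre is not stated, and no sham-operated transgenic group was sequenced. Mice were 8 to 9 weeks old in the methods, which name males in one place and both sexes in another. The labels do not give the time of tissue collection for the sham group. The sources also disagree on the tissue, which is the left ventricle in the labels, the infarct with its border zone in the design text and the remote zone in the methods. Each library was made from tissue of many cell types, so fewer cells of a type and less RNA per cell cannot be told apart.

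Total counts were between 20215781 and 36816818 per library, and between 60.6% and 73.5% of them fell on mitochondrial genes. Values are given as CPM, counts per 1000000 counts after TMM scaling within a table, and 1 CPM stood for 17.2 to 37.8 counts. To check the labels, Zeb2 itself was read first. It was at 55.5, 56.9 and 58.7 CPM in the 3 libraries with the label Zeb2 cTg IR and at 54.7, 57.8 and 67.0 CPM in Zeb2 WT IR (log2 fold change -0.07, SE 0.12, adjusted p = 0.750, edgeR's quasi-likelihood test with Benjamini-Hochberg adjustment). The targeted gene was thus not called higher in the libraries with this label, which are named the cTg-labelled libraries from here on. Whether RNA of the transgene is counted on the Zeb2 gene model is not given in the sources used here, and whether the labels are right was not tested, so every difference of the second comparison is one between labels. After IR in WT hearts, Zeb2 was higher than in WT sham, at 71.5 ± 11.2 against 51.6 ± 3.73 CPM (SD, n = 3, adjusted p = 0.0219). Cardiomyocyte genes made up the bulk of the marker counts in every library, and the 4 atrial markers together did not exceed 3.29 CPM in any library. The marker lists do not separate the left from the right ventricle. They were also not used to tell the infarct, border and remote zones apart, so the labelled part of the heart was not checked further.

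The sequences in front of Irx4 and Nkx2-5 are shown because these 2 genes were the only members called in both comparisons. Irx4 (ENSMUSG00000021604) spans chr13:73260479-73269608 on the plus strand of GRCm38, and Nkx2-5 (ENSMUSG00000015579) spans chr17:26838664-26845009 on the minus strand. RefSeq promoters (GRCm38.p6, 250 bases before to 50 bases after a transcript start) matched 7 of the 10 members, with 9 entries in all. Gata4, Gata6 and Tbx5 had no matching entry. The 250 bases before the start of Irx4 lie at chr13:73260247-73260496 on the plus strand, and 68.8% of them are G or C. Those of Nkx2-5 lie at chr17:26841566-26841815 on the minus strand, inside the annotated span of the gene, and 49.2% of them are G or C. Both are printed 5′ to 3′ on the strand of the gene, with no part in capitals.
Irx4: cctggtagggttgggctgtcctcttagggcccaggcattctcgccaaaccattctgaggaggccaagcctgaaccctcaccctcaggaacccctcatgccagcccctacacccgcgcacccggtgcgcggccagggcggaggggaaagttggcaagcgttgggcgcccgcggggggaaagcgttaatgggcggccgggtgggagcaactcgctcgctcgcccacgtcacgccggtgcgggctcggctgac
Nkx2-5: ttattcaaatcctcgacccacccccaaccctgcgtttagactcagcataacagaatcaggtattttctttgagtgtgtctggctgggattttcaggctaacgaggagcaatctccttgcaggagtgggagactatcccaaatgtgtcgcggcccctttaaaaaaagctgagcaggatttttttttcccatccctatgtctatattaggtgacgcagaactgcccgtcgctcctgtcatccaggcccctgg

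Both strands of these promoters were searched for 6 short motifs, and the windows of 30 bases around 3 matches are shown because they hold the recognition letters of the studied factor or of the members themselves. CACCTG, the E-box bound by ZEB2, was found in 20.3% of 32544 mouse promoters of the same length and in 1 of the 7 members, Irx4, where it begins 38 bases after the start and reads CAGGTG on the strand of the gene. This match is also one of CANNTG, the general E-box, which 72.3% of all promoters hold. CANNTG occurred in 4 of the 7 members: Irx4, Hand2, Mef2c and Nkx2-5. Neither the 250 bases of Nkx2-5 printed here nor the 50 bases after its start hold CACCTG. The MEF2 motif, CTA and TAG with 4 bases between them, found in 3.70% of promoters, occurred in 1 member, Mef2a, beginning 2 bases before its own start. AGATAA, a motif of the GATA factors, was found in 11.2% of promoters and occurred in Hand2, 172 bases before the start and on the opposite strand. Other forms of the GATA motif were not searched. TNAAGTG, a motif of NKX2-5 found in 11.5% of promoters, and AGGTGTNA, a T-box motif found in 3.04%, occurred in 0 of the 7 members, and the letters AGGTG of the latter overlap the E-box of ZEB2. In the windows below, given on the strand of the gene, capitals mark the motif.
Irx4 (chr13:73260517-73260546, plus strand): ccggcgcgctctgctctcCAGGTGctccgc
Mef2a (chr7:67372841-67372870, minus strand): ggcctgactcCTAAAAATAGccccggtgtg
Hand2 (chr8:57320799-57320828, plus strand): cccccgttttaaTTATCTtatggttatgag
A match of letters is a description of the sequence, and no binding was measured.

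In WT sham hearts, the members were transcribed at levels that differed several-fold from each other when set per kilobase of exon. Gata4 had the highest level at 12.05 ± 0.761 CPM per kb (SD, n = 3), and Mef2d followed at 9.74 ± 0.180 CPM per kb. Tbx20, Nkx2-5 and Mef2a came next at 8.65, 8.29 and 8.25 CPM per kb, and their libraries overlapped, so their order was within the spread between mice. Irx4 (4.68), Hand2 (3.93) and Gata6 (3.61 CPM per kb) formed a further overlapping set, each with its neighbour. Mef2c was at 3.10 CPM per kb, and Tbx5 was lowest at 1.88 ± 0.207 CPM per kb. The order differed between the groups. In WT IR, Tbx20 came first at 10.5 ± 1.20 CPM per kb, its libraries overlapping those of Gata4 (8.74), and Nkx2-5 was lower in the order at 3.35 ± 1.11 CPM per kb. In Zeb2 WT IR, Nkx2-5 was the lowest of the 10 at 0.667 ± 0.247 CPM per kb, under Tbx5 (1.19), with no overlap of their libraries. In the cTg-labelled libraries, Irx4 was the lowest at 0.984 ± 0.178 CPM per kb, also without overlap with Tbx5 (1.93).

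**Figure D1:**
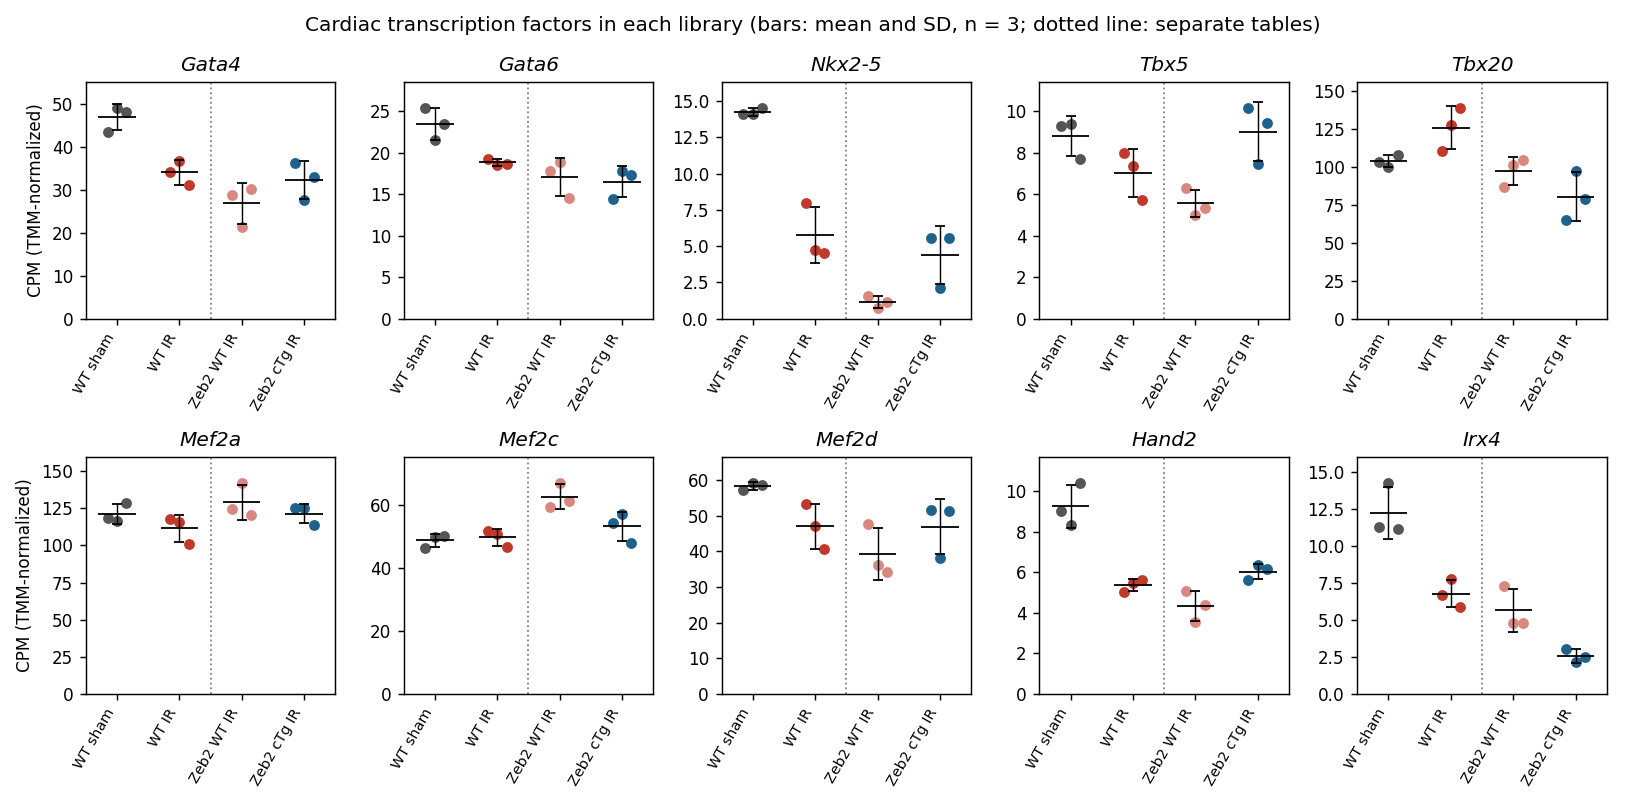
CPM of each of the 10 genes (vertical axes, from 0) in the 12 libraries, by group; points are libraries, lines and bars the mean and SD of 3 mice, and the dotted line separates the 2 tables, which were normalized separately. Nkx2-5 lies between 14.1 and 14.6 CPM in the sham libraries and between 4.55 and 7.97 after IR in the same table, and Irx4 lies between 2.14 and 3.06 CPM in the cTg-labelled libraries and at 4.80 or higher in all other libraries.

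The first comparison asked which genes differ between the injured and the uninjured WT heart. At 14 days after IR, 5 of the 10 members were lower than in WT sham and 0 were higher: Nkx2-5, Irx4, Hand2, Gata4 and Gata6. Across all 13756 genes tested, 9.74% were lower and 11.0% higher. The groups did not overlap in CPM for 7 of the 10 members, against 39.8% of all genes. The log2 fold change was negative for 8 members, with a median of -0.32 over the 10 against 0.01 over all genes, and 8 members had an unadjusted p under 0.05. All adjusted p-values in the text come from edgeR's quasi-likelihood test with Benjamini-Hochberg adjustment over all genes tested in a table, unless another tool is named.

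Nkx2-5, the homeobox factor that cooperates with GATA4 and TBX5 on cardiac promoters, showed the largest difference. It was measured at 14.1, 14.1 and 14.6 CPM in WT sham and at 7.97, 4.76 and 4.55 CPM in WT IR. The lowest sham library was well above the highest injured library, and the sham libraries lay much closer together than the injured ones. The level was 2.47-fold lower after IR (log2 fold change -1.30, SE 0.19, adjusted p = 0.00407). Irx4, the ventricular homeobox factor, was at 11.2, 14.3 and 11.1 CPM in WT sham and at 6.69, 7.72 and 5.89 CPM in WT IR. Its groups did not overlap either, and the level was 1.80-fold lower after IR (log2 fold change -0.85, SE 0.13, adjusted p = 0.00530). Both calls held when any 1 of the 6 libraries was left out.

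Hand2 was at 9.003, 8.31 and 10.4 CPM in WT sham and at 5.03, 5.45 and 5.63 CPM in WT IR. The groups were separate, with a 1.71-fold lower level after IR (log2 fold change -0.77, SE 0.11, adjusted p = 0.00448), and the call held when any 1 library was left out. Hand2 shares 461 exon bases with Hand2os1 on the opposite strand, which is not counted in the tables, and the strand setting of the counting is not given in the sources used here.

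The GATA factors moved less. Gata4, which with NKX2-5 drives sarcomere and natriuretic peptide genes, was at 43.7, 49.2 and 48.2 CPM in WT sham and at 34.3, 36.9 and 31.2 CPM in WT IR. All injured libraries were below all sham libraries, at a 1.38-fold lower level (log2 fold change -0.46, SE 0.09, adjusted p = 0.00904). Without WT sham replicate 2 the adjusted p was 0.0599. Gata6, its close paralogue, was at 25.5, 21.6 and 23.5 CPM in WT sham and at 19.3, 18.5 and 18.7 CPM in WT IR, a 1.25-fold lower level (log2 fold change -0.32, SE 0.08, adjusted p = 0.0250). The groups did not overlap, but the call was the least stable of the 5: adjusted p was 0.10 without WT sham replicate 1, 0.0576 without WT sham replicate 2, 0.0643 without WT sham replicate 3 and 0.0980 without WT IR replicate 2. Gata6 shares 93 exon bases with a transcript on the opposite strand, 1010001N08Rik.

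The T-box and MEF2 factors did not pass the test. Tbx20, a repressor and activator needed for adult cardiomyocyte function, was at 104, 99.9 and 108 CPM in WT sham and at 111, 128 and 139 CPM in WT IR. All injured libraries were above all sham libraries, by a log2 fold change of 0.28 (95% confidence interval 0.06 to 0.50, adjusted p = 0.0672), and the adjusted p was 0.00329 without WT IR replicate 1 and between 0.125 and 0.243 without any other library. Tbx5, which shares targets with NKX2-5 and GATA4, was at 9.31, 9.41 and 7.68 CPM in WT sham and at 7.999, 7.38 and 5.74 CPM in WT IR. Its groups overlapped (log2 fold change -0.33, interval -0.64 to -0.02, adjusted p = 0.122), and it passed without WT IR replicate 1 (adjusted p = 0.0287) but not without any other library (0.0996 to 0.321).

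Among the MADS-box factors, Mef2d was at 57.1 to 59.2 CPM in WT sham and at 53.4, 47.1 and 40.8 CPM in WT IR (log2 fold change -0.31, interval -0.53 to -0.09, adjusted p = 0.0530). The groups of this stress-responsive family member did not overlap, and without WT IR replicate 1 the adjusted p was 0.00206, against 0.114 to 0.170 without any other library. Mef2a, which MEF2-dependent stress signalling in the adult heart also uses, ranged from 116 to 129 CPM in WT sham and from 101 to 118 CPM in WT IR (log2 fold change -0.12, interval -0.32 to 0.08, adjusted p = 0.355). Mef2c ranged from 46.5 to 50.1 CPM in WT sham and from 46.5 to 51.8 CPM in WT IR (log2 fold change 0.03, interval -0.14 to 0.20, adjusted p = 0.817). Mef2d and Mef2a overlap genes on the opposite strand (531 exon bases with 1700113A16Rik and 302 with Lysmd4).

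**Figure D2:**
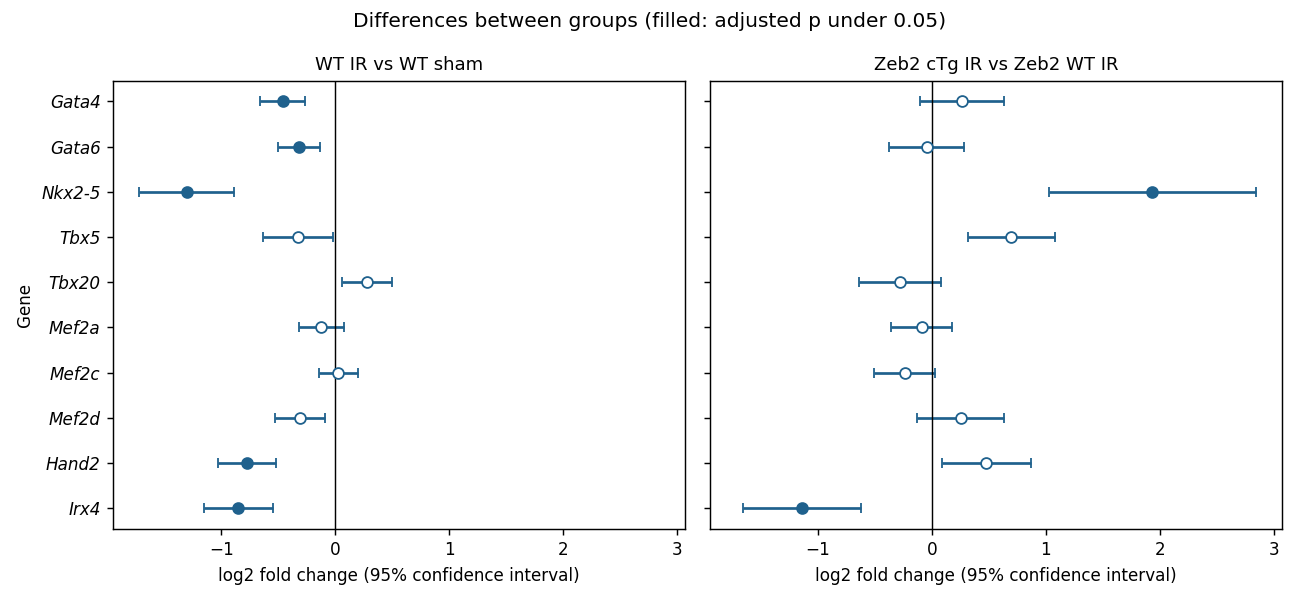
Log2 fold change of each gene (horizontal axis) with its 95% confidence interval in WT IR against WT sham (left) and in Zeb2 cTg IR against Zeb2 WT IR (right), 3 mice per group; filled points passed an adjusted p of 0.05 in edgeR's quasi-likelihood test. On the left 5 points are filled, all below 0, and on the right Nkx2-5 (1.94) and Irx4 (-1.14) are filled on opposite sides of 0.

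The second comparison set injured hearts labelled as Zeb2 transgenic against injured hearts of wildtype littermates. Of the 10 members, Nkx2-5 was higher and Irx4 lower in the cTg-labelled libraries, so 1 member was called in each direction. Across the 13018 genes tested, 2.14% were higher and 1.51% lower. The groups did not overlap for 5 members (Nkx2-5, Irx4, Tbx5, Hand2 and Mef2c), against 26.2% of all genes. The log2 fold change was positive for 5 members and negative for 5, with a median of 0.10 against 0.01 over all genes, and 4 members had an unadjusted p under 0.05.

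Nkx2-5 was at 1.58, 0.728 and 1.13 CPM in Zeb2 WT IR, which corresponds to 43, 18 and 34 counts. In the cTg-labelled libraries it was at 5.57, 2.10 and 5.56 CPM, from 133, 55 and 198 counts. Replicate 2 of these was nearer to the highest library of Zeb2 WT IR than to replicates 1 and 3, but the groups did not overlap. The level was 3.83-fold higher (log2 fold change 1.94, SE 0.40, 95% confidence interval 1.03 to 2.84, adjusted p = 0.0346). The call was lost without Zeb2 WT IR replicate 2 (adjusted p = 0.0932) or replicate 3 (0.147), and without Zeb2 cTg IR replicate 1 (adjusted p = 0.110) or replicate 3 (0.126), while the log2 fold change stayed between 1.71 and 2.26 in all 6 such fits.

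Irx4 was at 7.30, 4.82 and 4.80 CPM in Zeb2 WT IR and at 3.06, 2.14 and 2.50 CPM in the cTg-labelled libraries. The groups were separate, with replicate 1 the highest in each. The level was 2.20-fold lower (log2 fold change -1.14, SE 0.23, interval -1.65 to -0.62, adjusted p = 0.0308). The call was lost without Zeb2 WT IR replicate 1 (adjusted p = 0.0672) or replicate 3 (0.0792), and without Zeb2 cTg IR replicate 1 (adjusted p = 0.0606) or replicate 3 (0.118), with log2 fold changes between -1.28 and -0.91 over the 6 fits. Irx4 was the only member called lower in both comparisons, each within its own table.

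Tbx5 was at 6.31, 5.02 and 5.36 CPM in Zeb2 WT IR and at 10.2, 7.44 and 9.44 CPM in the cTg-labelled libraries. Each of them was above each library of Zeb2 WT IR, by a log2 fold change of 0.70 (SE 0.17, interval 0.31 to 1.08), and the adjusted p of 0.0560 lay just above the threshold. Without Zeb2 cTg IR replicate 2 it was 0.00980, and in the 5 other fits that left out a library it was between 0.0672 and 0.204. Hand2 was at 5.06, 3.56 and 4.36 CPM in Zeb2 WT IR and at 5.62, 6.34 and 6.15 CPM in the cTg-labelled libraries (log2 fold change 0.48, interval 0.09 to 0.87, adjusted p = 0.141). Its groups did not overlap, but the difference did not pass the test.

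The other 6 members did not pass. Gata4 was at 28.9, 21.5 and 30.4 CPM in Zeb2 WT IR and at 36.3, 27.7 and 33.1 CPM in the cTg-labelled libraries (log2 fold change 0.27, interval -0.10 to 0.63, adjusted p = 0.338). Gata6 ranged from 14.5 to 18.9 CPM in Zeb2 WT IR and from 14.4 to 17.9 CPM in the cTg-labelled libraries (log2 fold change -0.05, interval -0.38 to 0.29, adjusted p = 0.875). The libraries of both GATA factors overlapped between the groups. Tbx20 was at 87.1, 101 and 104 CPM against 65.2, 97.4 and 78.7 CPM (log2 fold change -0.28, adjusted p = 0.308), again with overlap. Mef2c was at 59.4, 67.1 and 61.3 CPM against 54.2, 57.3 and 48.0 CPM, without overlap but with an adjusted p of 0.257 (log2 fold change -0.24, interval -0.50 to 0.03). Mef2a (log2 fold change -0.09, adjusted p = 0.670) and Mef2d (0.25, adjusted p = 0.377) overlapped between the groups.

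The fold changes moved with the GC content of the transcripts in both comparisons, in opposite directions. In WT IR against WT sham, the median log2 fold change fell from 0.15 in genes under 40% GC to -0.38 in genes of 60 to 65% GC and -0.79 in the 40 genes of 65% GC or more. In Zeb2 cTg IR against Zeb2 WT IR, it rose from -0.24 under 40% to 0.54 at 60 to 65% and was 0.41 in the 25 genes of 65% or more. The members called in either comparison have 55.3% GC or more: the longest transcript of Nkx2-5 has 67.1% GC, that of Irx4 60.9%, Hand2 59.3%, Gata4 57.4% and Gata6 55.3%, whereas of the members not called Mef2d has 55.03%, close to Gata6, Tbx5 has 51.3%, and Tbx20, Mef2a and Mef2c have 40.8% to 42.3%. Libraries differed in the same way. The median level of genes of 60% GC or more, relative to that of genes under 45% GC, lay at 0.13 to 0.32 (log2) in the sham libraries and at -0.33 to -0.11 in the injured ones of the same table. It was 0.13, -0.79 and -0.41 in Zeb2 WT IR replicates 1 to 3 and 0.65, -0.29 and 0.74 in the cTg-labelled libraries. The replicate with the highest value in Zeb2 WT IR was also the highest for Nkx2-5, and the cTg-labelled library with the lowest value was the lowest for Nkx2-5. Both held for Irx4, Tbx5 and Mef2d too, and not for the other members. The part of GC content in the differences was not tested beyond the corrections given next.

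**Figure D3:**
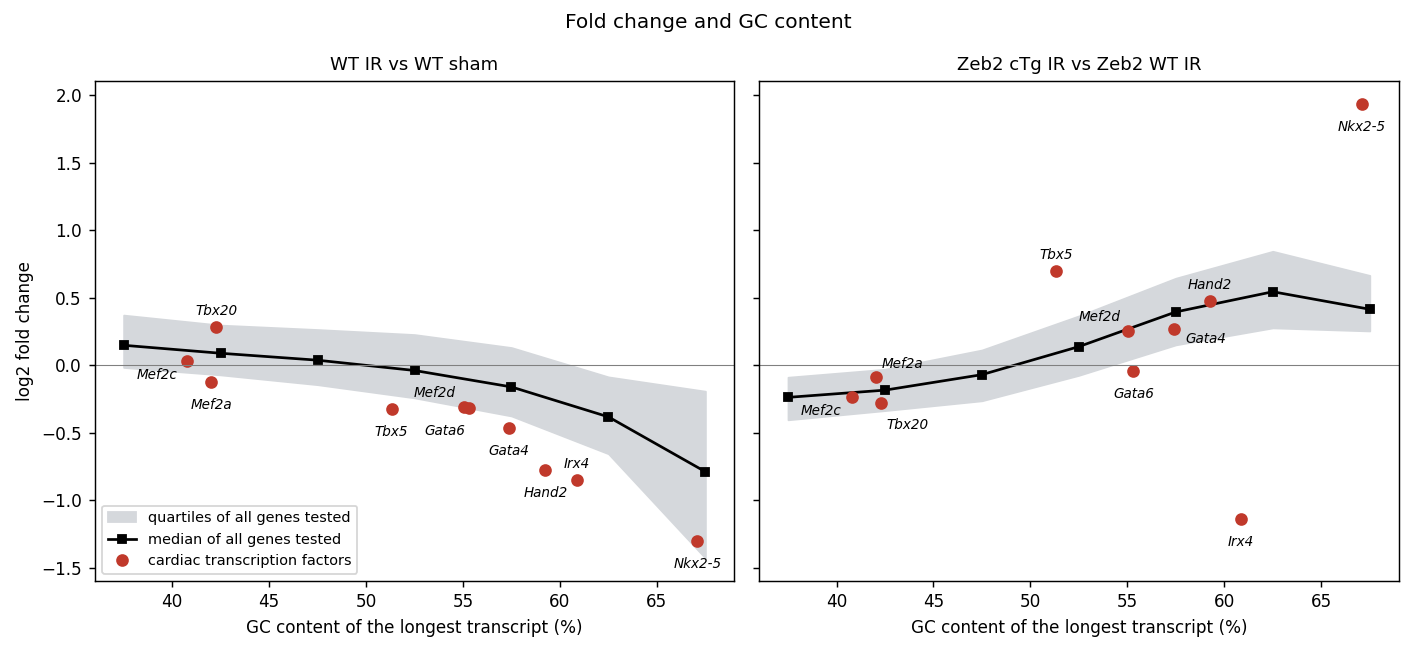
Log2 fold change (vertical axis) against the GC content of the longest transcript (horizontal axis, %) in both comparisons; squares and line are the medians and the grey band the quartiles of all genes tested in 7 bins of GC content, drawn at the middle of each bin (the open bins at both ends beside their neighbours), and red points are the 10 genes. In WT IR against WT sham Nkx2-5 (-1.30) lies in the band of the genes of highest GC content, and in Zeb2 cTg IR against Zeb2 WT IR Irx4 (-1.14) lies far below its bin, whose median is 0.55 without it.

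Set against genes of similar GC content, the members differed from each other. In WT IR against WT sham, 11 of the 39 other genes of 65% GC or more fell further than Nkx2-5. A loess correction for GC content in each library took its log2 fold change to -0.17 (adjusted p = 0.396), and a correction by the medians of 7 GC bins, chosen after seeing the data, left it at -0.58 (adjusted p = 0.0211). With the loess correction, 1186 genes were higher and 1597 lower, against 1519 and 1340 without it. The median log2 fold change of all genes was -0.07 with loess and -0.003 with the bins, against 0.01 without a correction. The size of the Nkx2-5 difference after IR therefore depended on how GC content was treated. Hand2 was lower than all but 88 of the 2366 other genes of its bin and kept its call under both corrections (log2 fold changes -0.60 and -0.62). Irx4 was lower than all but 56 of 460 and also kept it, at -0.56 (loess, adjusted p = 0.0263) and -0.48 (bins, adjusted p = 0.0477). Gata4 kept its call as well, at -0.38 (loess, adjusted p = 0.0280) and -0.31 (bins, adjusted p = 0.0463). Under the bins, both calls lay just below the threshold. Gata6 kept its call under the loess correction (-0.30, adjusted p = 0.0327) and not under the bins (-0.17, adjusted p = 0.168).

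In Zeb2 cTg IR against Zeb2 WT IR, Irx4 went against the direction of its GC class. Only 1 of the 406 other genes of 60 to 65% GC had a lower fold change, and the corrections made the difference larger, with log2 fold changes of -1.64 (loess, adjusted p = 0.00177) and -1.67 (bins, adjusted p = 0.00182). Nkx2-5 was above 22 of the 24 other genes of its class, and its log2 fold change was 1.26 (adjusted p = 0.0243) and 1.52 (adjusted p = 0.0257) after the corrections. Tbx5, at 51.3% GC, was above 3096 of 3332 genes and passed the test under both, at 0.62 (adjusted p = 0.0264) and 0.55 (adjusted p = 0.0318). Hand2 came down to 0.06 and 0.13, and Gata4, Mef2d and Mef2a changed sign under both corrections without passing.

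Markers of other cell types moved with the groups. In WT IR, 9 of 10 fibroblast markers and 10 of 10 macrophage and leukocyte markers were higher than in WT sham, with summed levels of 1891 to 4731 CPM against 522 to 928 CPM and of 242 to 463 CPM against 168 to 187 CPM. Of the 22 cardiomyocyte markers 6 were lower and 0 higher, with summed levels of 51363 to 65680 CPM against 66040 to 72623 CPM, and 0 of 10 endothelial markers passed in either direction. Among 8 smooth muscle and pericyte markers 2 were higher and 1 lower, among 5 tested epicardial markers 1 was higher and 1 lower, and the 1 tested atrial marker did not pass. No marker was at 0 in a whole table. When the libraries were scaled to the 22 cardiomyocyte markers instead of to all genes, the median of all genes moved to 0.30. Over all genes, 3346 were then higher and 247 lower, against 1519 and 1340 with TMM. Several of the 22 markers, among them Myh6, Tnni3 and Ryr2, are also on the list of target genes read below. This scale is therefore partly set by targets of such factors. On that scale Nkx2-5 (log2 fold change -1.04, adjusted p = 0.00481) and Irx4 (-0.56, adjusted p = 0.0308) were still lower, whereas Hand2 (-0.48, adjusted p = 0.0629), Gata4 (-0.17, adjusted p = 0.290) and Gata6 (-0.03, adjusted p = 0.884) did not pass. Tbx20 (0.59, adjusted p = 0.0216) and Mef2c (0.32, adjusted p = 0.0465) were then higher, Mef2c by about as much as the median gene.

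In the cTg-labelled libraries, 3 of 10 fibroblast markers were lower, with a summed level of 542 to 665 CPM against 926 to 2062 CPM in Zeb2 WT IR, and 2 of 22 cardiomyocyte markers were higher, with 72228 to 76395 CPM against 64502 to 68799 CPM. Of 10 endothelial, 10 macrophage and leukocyte and 4 tested epicardial markers 0 passed, and of 7 tested smooth muscle and pericyte markers 1 was higher. The summed level of the 4 atrial markers was 0.403 to 0.486 CPM in Zeb2 WT IR and 0.916 to 3.29 CPM in the cTg-labelled libraries, and the 1 atrial marker tested did not pass. Scaled to the cardiomyocyte markers, the median of all genes was at -0.23, with 135 genes higher and 443 lower against 278 and 196 with TMM, and Nkx2-5 (1.66, adjusted p = 0.0204) and Irx4 (-1.38, adjusted p = 0.00468) kept their calls. The part of the cell makeup in the differences of the members was not tested further.

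**Figure D4:**
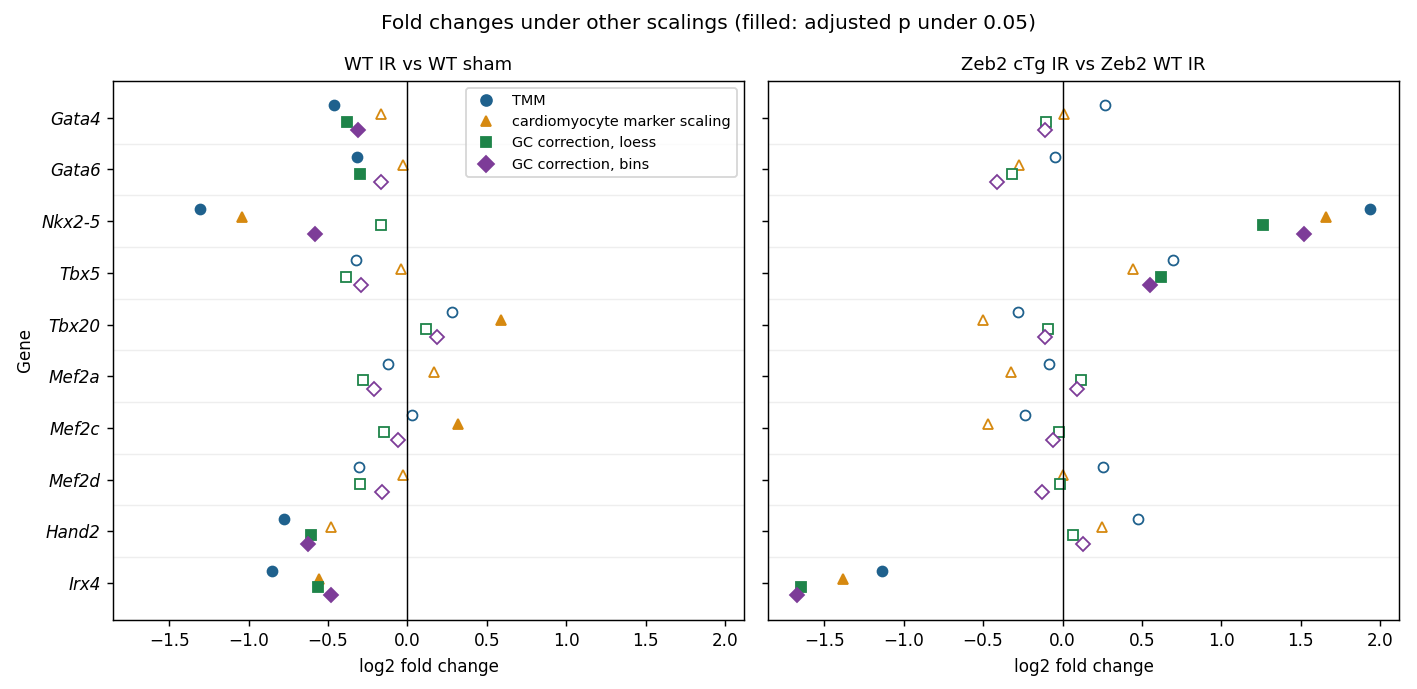
Log2 fold change (horizontal axis) of each gene with TMM, with size factors from 22 cardiomyocyte markers and with 2 corrections for GC content, in both comparisons, 3 mice per group; filled symbols passed an adjusted p of 0.05 in edgeR's quasi-likelihood test. Irx4 is filled and below 0 in all 8 settings shown, whereas Nkx2-5 in WT IR against WT sham ranges from -1.30 to -0.17.

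The 2 groups of injured wildtype hearts are in separate tables and were set side by side without a test. Nkx2-5 was at 5.76 ± 1.92 CPM in WT IR and at 1.15 ± 0.424 CPM in Zeb2 WT IR (SD, n = 3). Irx4 was at 6.77 ± 0.919 and 5.64 ± 1.44 CPM, Hand2 at 5.37 ± 0.308 and 4.33 ± 0.751 CPM, and Tbx5 at 7.04 ± 1.17 and 5.56 ± 0.668 CPM. The level of Nkx2-5 in the cTg-labelled libraries, 4.41 ± 2.00 CPM, lay between those of the 2 injured wildtype groups. Table and group cannot be told apart here.

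Other genes of the same network were read from 3 lists. Of 24 further cardiac developmental factors 17 were tested, and in WT IR 2 were higher and 6 lower than in WT sham, with a median log2 fold change of -0.26. Tbx18, a factor of the epicardium and of pericytes, rose from 2.48 ± 0.143 to 4.57 ± 0.791 CPM (adjusted p = 0.00871), and Nr2f2, an atrial and venous identity factor, rose from 3.72 ± 0.339 to 5.98 ± 1.21 CPM (adjusted p = 0.0209). The 3 with the smallest p among those lower were 2 relatives of Irx4 and a factor of compact ventricular muscle. Irx1 fell from 1.60 ± 0.631 to 0.408 ± 0.0386 CPM (log2 fold change -2.02, adjusted p = 0.00595), Irx3, which acts in fast conduction, fell from 5.69 ± 0.343 to 3.19 ± 0.539 CPM (adjusted p = 0.00739), and Prdm16 fell from 13.4 ± 0.844 to 7.96 ± 1.37 CPM (adjusted p = 0.00599). Irx1 was near the filter on low counts in WT IR. The values given for genes of the 3 lists are without GC correction.

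Of 29 partners, corepressors and kinases, 1 was higher and 11 were lower in WT IR, with a median log2 fold change of -0.12. Wwtr1, a coactivator of TEAD factors, was higher (0.41, adjusted p = 0.0161). Camta2 (-0.59, adjusted p = 0.00407), a partner of NKX2-5, Smarcd3 (-0.60, adjusted p = 0.00653), the chromatin remodelling subunit that aids GATA4 and TBX5, and Myocd (-0.66, adjusted p = 0.00795), the coactivator of serum response factor, were lower. Of 26 tested target genes 4 were higher and 6 lower. Those that rose with the smallest p were genes of the fetal and stress programme: Myh7 from 13.5 ± 4.69 to 220 ± 77.2 CPM (adjusted p = 0.000462), Nppa from 25.9 ± 11.8 to 311 ± 106 CPM (adjusted p = 0.00156) and Ankrd1 from 239 ± 56.9 to 613 ± 125 CPM (adjusted p = 0.00407). Those that fell were Kcnh2, a repolarizing potassium channel (log2 fold change -0.98, adjusted p = 0.0101), Ckm, muscle creatine kinase (-0.68, adjusted p = 0.0118), and the myosin light chain Myl3 (-0.56, adjusted p = 0.0237), of which the latter 2 are also among the cardiomyocyte markers.

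In the cTg-labelled libraries, 0 of 17 developmental factors were higher and 1 was lower. This was Hey2, a NOTCH-responsive repressor of the compact ventricular wall that, like IRX4, keeps atrial genes silent in the ventricle, which fell from 2.60 ± 0.594 to 1.14 ± 0.191 CPM (log2 fold change -1.19, SE 0.25, adjusted p = 0.0380). Of the 29 partners 0 were higher and 1 was lower, Tead1, the DNA-binding partner of YAP and WWTR1, from 66.2 ± 2.48 to 40.4 ± 4.28 CPM (-0.71, adjusted p = 0.0166). Of 26 tested target genes 6 were higher and 0 lower. The natriuretic peptide genes were the leading ones, with Nppa at 208 ± 92.1 against 38.7 ± 20.4 CPM (log2 fold change 2.43, adjusted p = 0.0182) and Nppb at 177 ± 63.1 against 72.0 ± 19.6 CPM (1.30, adjusted p = 0.0308), followed by the thin filament gene Tnnt2 (0.68, adjusted p = 0.0375), which is also a cardiomyocyte marker.

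The genes whose profile over the 12 libraries was most like that of each called member were found by the root mean square difference of log2 CPM, centred within each table, among 12790 other genes. For Nkx2-5 these were Hist1h4h, a histone H4 gene (difference 0.14), and Apba3 (0.25). For Irx4 they were Btbd11 (0.17) and Ung (0.24), for Hand2 Tbcc (0.15) and Tmc4 (0.15), for Gata4 Kctd1 (0.08) and Smurf1 (0.08), and for Gata6 Snx3 (0.07) and Pkdrej (0.08). Btbd11, like Irx4, had negative log2 fold changes in both comparisons (-0.72 after IR and -1.41 in the cTg-labelled libraries), and Hist1h4h had the signs of Nkx2-5 (-1.39 and 2.26). These genes were picked for the likeness of their profiles over the same libraries, so the shared signs follow from the choice. The 12 libraries share their tables' scaling and the GC differences given above.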

How the data were processed

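RNA-seq was performed on the hearts of 12 mice. The authors prepared stranded libraries, sequenced single-end reads of 75 bases, aligned them to mm10 with STAR (2.4.2a in the submitters' processing notes, which also name HTSeq 0.6.1) on GENCODE annotation, and deposited whole-number counts per gene, without normalization, in 2 tables of 6 libraries. The kit was an mRNA kit in the labels and a total RNA kit in the methods. Libraries were assigned to groups from their labels, and all columns were used. The 2 tables were fitted separately with edgeR 4.0.16 under R 4.3.3. Genes were kept by filterByExpr (minimum count 10, minimum total 15), libraries were scaled by TMM, and genes passed at 0.05 after the p-values of the quasi-likelihood test had been adjusted by Benjamini-Hochberg over the table. The methods used an older DESeq with per-condition dispersion, which was not used here. CPM are TMM-normalized, and per-kilobase levels divide them by the union of exons in GENCODE M21 (GRCm38), which also gave symbols (36345 of 38293 identifiers), positions and GC content. The scripts were tested on simulated data.

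Alternatives were RLE, upper quartile and cardiomyocyte marker size factors, no mitochondrial genes, no filter, at least 10 counts in every library, the replicate number as a block, a loess correction for GC content (span 0.5), both together, all 12 libraries in 1 fit, DESeq2 1.42.0, limma-voom (limma 3.58.1), a threshold of 0.1, and leaving out each library. Correction by GC bins was added after the data were seen. Named genes were the members, Zeb2, from each list and comparison up to 3 genes higher and 3 lower with the smallest p, and the 2 nearest profiles of each called member. The members and lists were chosen with earlier results of these data known. No 2 libraries of the same table agreed within sampling noise, and libraries of different tables were not compared in this way. With 3 mice per group an exact permutation test cannot go below p = 0.1.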

Additional observations from a re-analysis of the deposited data

How the results depend on the processing

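In WT IR against WT sham, 173 of 200 log2 fold changes under other settings kept their direction and their side of the threshold, and in Zeb2 cTg IR against Zeb2 WT IR 170 of 200 did. After IR, cardiomyocyte marker size factors gave 2 members higher and 2 lower, with 3346 of all 13756 genes higher and 247 lower. A threshold of 0.1 gave 1 member higher and 6 lower, with 2191 of all genes higher and 1992 lower. When each library was left out in turn, 0 to 1 members were higher and 3 to 7 lower. Between the cTg-labelled libraries and Zeb2 WT IR, 2 members were higher with no filter, with the replicate block, with either GC correction, with replicate block and GC correction together, with DESeq2 and at a threshold of 0.1, where Tbx5 joined Nkx2-5, 3 were higher with all 12 libraries in 1 fit (with Hand2), and 0 with limma-voom (Nkx2-5 1.87, adjusted p = 0.0677). Over all 13018 genes, a threshold of 0.1 gave 763 higher and 554 lower, and limma-voom 231 and 163. Replicate block and GC correction together gave 413 and 290. Leaving out each library gave 0 to 2 members higher and 0 to 1 lower. The causes of these changes were not tested.

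Values that changed sign were all of members that had not passed. After IR, Mef2a was at 0.17 with marker size factors, and Mef2c at -0.15 with the loess correction (-0.15 with the block added), -0.061 with the bins, and at -0.0066 to 0.071 when each library was left out, below 0 without WT sham replicate 1 or WT IR replicate 1. In the other comparison, Gata4 was at -0.11 under each GC correction, Mef2a at 0.12, 0.11 and 0.094, and Mef2d at -0.014, -0.0067 and -0.13 with loess, loess with block and bins, and Gata6 at -0.15 to 0.038 when each library was left out, above 0 without Zeb2 WT IR replicate 2 or Zeb2 cTg IR replicate 1.

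Gata6 after IR did not pass with all 12 libraries in 1 fit (adjusted p = 0.0963). Replicate numbers name different mice, and same-numbered libraries did not deviate together throughout (correlations of -0.03 to 0.01 in the WT table and -0.04 to 0.26 in the other). Between differently numbered libraries the correlations were -0.11 to 0.11 in the WT table and -0.33 to 0.33 in the other. The replicate block gave Tbx5 a log2 fold change of 0.69 (adjusted p = 0.0147) and called 1164 genes higher and 649 lower, against 278 and 196 without it, and it changed no other call of a member. Over all genes of this comparison, no filter called 1029 higher and 524 lower, DESeq2 671 and 425, the loess correction 483 and 343, the bins 433 and 363, and the fit of all 12 libraries 1186 and 718, and the last called 927 and 463 after IR, against 1519 and 1340. Without Zeb2 cTg IR replicate 2 the counts were 1594 and 825, and without Zeb2 WT IR replicate 3 they were 50 and 48. After IR they ranged from 226 and 195 without WT sham replicate 2 to 2543 and 2437 without WT IR replicate 1. Depth limits Nkx2-5 in Zeb2 WT IR, where 18 to 43 counts were read per library.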
